A study of Mus musculus with 6 samples.

Results

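Transcripts for the synthesis, turnover and binding of hyaluronan were examined in mouse gastrocnemius muscle that had received a constitutively active aryl hydrocarbon receptor (AHR). The set held 10 genes of the 49315 rows in the count table, each matched by its gene symbol. They were the synthase genes Has1, Has2 and Has3, the turnover genes Hyal1, Hyal2 and Cemip, and the binding genes Cd44, Tnfaip6, Vcan and Hapln1. The set was proposed because Has1 was known to be much lower in the AAV9-HSA-CAAHR muscles, and the other 9 genes were added by their function. The comparison of the groups therefore chose the set. Its values and threshold calls for these 10 genes are given as a description, and the calls are no independent support.

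All mice were male C57BL6J. An AAV9 vector (adeno-associated virus) was put into the gastrocnemius when the mice were 5 months old, and muscles were taken 5 months later. The virus carried green fluorescent protein (AAV9-HSA-GFP, replicates 42, 43 and 46) or a mouse AHR that lacks its ligand-binding domain and needs no ligand (AAV9-HSA-CAAHR, replicates 31, 34 and 36), so every library came from virus-treated muscle and there were 3 libraries per group. The human skeletal actin (HSA) promoter drove both transgenes and works in muscle fibres, whereas RNA was taken from the muscle with all of its cell types. Uninjected muscle was not analysed here, and fewer cells of a type and less RNA per cell cannot be told apart in such samples. The paper compared selected immune genes with naive mice by qPCR, and found them not lower in AAV9-HSA-CAAHR muscle. It concludes that the control virus itself set off an immune response in the muscle. A lower level here therefore means lower than in control-virus muscle, which is not a baseline of untreated muscle.

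Hyaluronan is a long, unsulphated glycosaminoglycan of the extracellular matrix. It is polymerised at the plasma membrane from UDP-glucuronic acid and UDP-N-acetylglucosamine by the 3 HAS enzymes, is cut by hyaluronidases, and is held in place by proteins such as CD44, versican, link proteins and TSG-6. In skeletal muscle it lies mainly in the connective tissue around fibres and is known to build up after injury and in inflammation.

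Total counts per library were between 43432994 and 58825752. The delivered gene was checked first. Ahr was between 9.97 and 22.8 CPM (counts of a gene per 1e6 counts, with library sizes scaled by TMM, edgeR's trimmed mean method) in AAV9-HSA-CAAHR muscles, and between 1.87 and 2.55 CPM in AAV9-HSA-GFP muscles, and its target Cyp1a1 was between 1231 and 1680 CPM against 5.85 to 7.74 CPM. Ahrr, the AHR repressor and another target, was between 24.0 and 29.2 CPM against 0.0755 to 0.187 CPM, so the libraries matched their labels. The muscle fibre list summed to between 141248 and 176327 CPM after the active receptor, against 210299 to 211937 CPM after the control virus. Of its 10 genes, 4 were called lower and 0 higher at an adjusted p under 0.05, beside 4.57% and 3.04% of all tested genes. By fitted value 6 were lower and 4 higher, the latter Myh2 (log2 fold change 1.38 ± 0.81), Mb (1.03 ± 0.62), Myh1 (0.997 ± 0.647) and Ttn (0.03 ± 0.13). Of the 15847 genes tested with edgeR, 1205 had an adjusted p under 0.05. Of these calls, made with TMM scaling, 60.1% were lower. The share lower was 73.4% of the 1348 genes called with upper quartile scaling and 40.7% of the 1476 called with library size only.

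Of the 10 hyaluronan genes, 9 had enough counts to be tested and Hapln1 did not. Has1, Has2 and Tnfaip6 were past the threshold of 0.05 over all tested genes, all lower, and 0 were past it in the other direction. Over all tested genes 7.6% were called, 4.57% lower and 3.04% higher. For the same 3 genes every AAV9-HSA-CAAHR library was below every control-virus library, as were 14.9% of tested genes. Hyal1 was higher with no overlap, as were 15% of tested genes (29.9% in either direction). The groups overlapped for the other 5. Nothing is read from these counts, because the same comparison had been used to propose the set. The median log2 fold change of the 9 genes was -0.24, against 0.00863 over all tested genes.

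**Figure D1:**
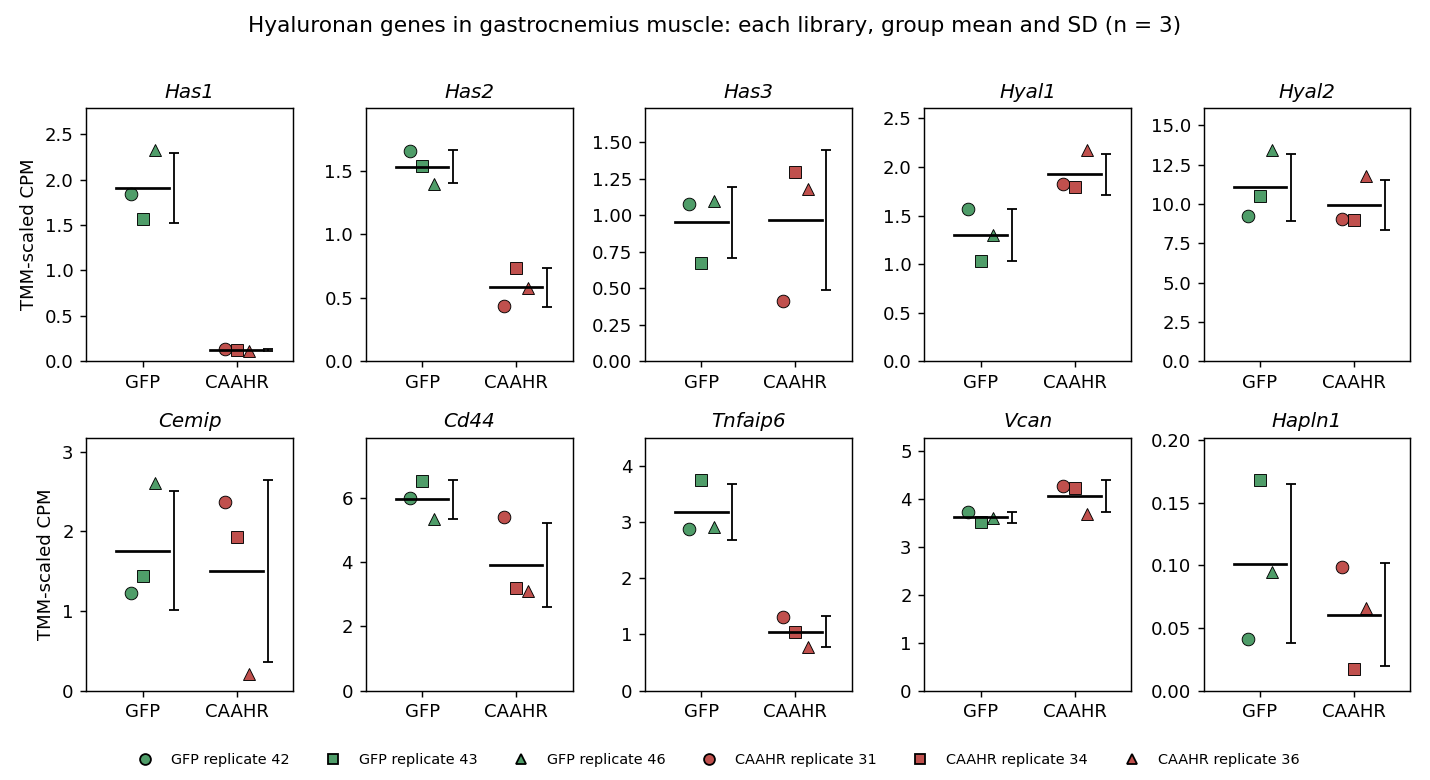
TMM-scaled CPM (vertical axis, from 0) of each of the 10 hyaluronan genes in the 3 AAV9-HSA-GFP libraries (green) and the 3 AAV9-HSA-CAAHR libraries (red), with the group mean as a line and the SD as a bar. Has1, Has2 and Tnfaip6 are lower in all AAV9-HSA-CAAHR libraries than in any AAV9-HSA-GFP library, and Hyal1 is higher.

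Has1 (ENSMUSG00000003665, chromosome 17, 17843323 to 17855205, minus strand, GRCm38) encodes hyaluronan synthase 1, a multi-pass membrane enzyme that is usually at low levels in resting tissue. It was at 1.84, 1.56 and 2.32 CPM in AAV9-HSA-GFP replicates 42, 43 and 46 and at 0.138, 0.123 and 0.115 CPM in AAV9-HSA-CAAHR replicates 31, 34 and 36. All 3 AAV9-HSA-GFP libraries were far above all 3 AAV9-HSA-CAAHR libraries, which lay close to each other. The log2 fold change was -3.91 ± 0.31 (SE), a level 15.1-fold lower. Behind these values were 7 counts in each AAV9-HSA-CAAHR library and between 65 and 123 counts in the AAV9-HSA-GFP libraries, so the low group rests on few reads but is above the floor of 3 counts.

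The bases just before the Has1 gene are shown because Has1 changed most of the set and because AHR and its partner ARNT bind DNA at a short core, GCGTG. The sequence is from RefSeq (GRCm38.p6, chr17:17855206-17855438, minus strand), 5′ to 3′ on the strand of the gene, and it holds no capitals because none of the 3 motifs searched was found.

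Has1: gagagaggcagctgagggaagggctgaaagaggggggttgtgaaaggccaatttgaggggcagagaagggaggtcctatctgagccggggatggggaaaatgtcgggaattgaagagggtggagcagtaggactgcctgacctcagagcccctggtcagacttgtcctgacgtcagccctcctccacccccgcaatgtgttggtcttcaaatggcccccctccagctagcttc

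The motifs were GCGTG, read as CACGC on the other strand, the AP-1 site TGANTCA, which reads the same on both strands, and the TATA box TATAAA, read as TTTATA on the other strand. A promoter was supplied for 8 of the 10 genes. In the 250 bases before the RefSeq start, GCGTG was found in 0 of these 8, against 28.2% of 32851 mouse promoter windows. TGANTCA was found in Tnfaip6 alone of the 8, against 6.75% of all windows, and TATAAA in Cemip alone, against 12.4%. No match says only that these letters are not in this window. The stretch of the Tnfaip6 window before the annotated gene (chr2:52037863-52038008, plus strand) is shown for its match, in capitals.

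Tnfaip6: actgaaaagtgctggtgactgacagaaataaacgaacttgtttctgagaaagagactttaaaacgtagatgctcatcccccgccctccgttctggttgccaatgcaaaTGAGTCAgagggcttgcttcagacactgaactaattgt

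Of the protein-coding genes nearest to Has1, only Spaca6 was tested. Spaca6, a sperm protein gene whose end lies 314 bases from that of Has1 on the opposite strand, was at 4.95, 3.94 and 5.40 CPM in AAV9-HSA-GFP replicates 42, 43 and 46 and at 4.53, 4.01 and 4.51 CPM in AAV9-HSA-CAAHR replicates 31, 34 and 36 (log2 fold change -0.13 ± 0.16, edgeR adjusted p 0.673). On the other side, Fpr1 and Fpr2, formyl peptide receptor genes of phagocytes at 21266 and 32619 bases from Has1, had between 0 and 10 counts per library and were not tested. Vmn2r90, a vomeronasal receptor gene, had 0 counts in all 6 libraries, which allows up to 0.0721 CPM in the shallowest library from 3 counts, a limit that covers counting error only.

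Has2 (chromosome 15, 56665627 to 56694539) encodes the synthase that makes most hyaluronan in the embryo and in many adult fibroblasts. It was at 1.66, 1.54 and 1.40 CPM in AAV9-HSA-GFP replicates 42, 43 and 46 and at 0.435, 0.735 and 0.574 CPM in AAV9-HSA-CAAHR replicates 31, 34 and 36. The highest AAV9-HSA-CAAHR library was well under the lowest AAV9-HSA-GFP library. Its log2 fold change was -1.39 ± 0.27, a level 2.62-fold lower. The call was lost without AAV9-HSA-CAAHR replicate 36 (log2 fold change -1.38) and without AAV9-HSA-GFP replicate 42 (-1.33), with about the same size of change. Has2 shares 4.3% of its exon bases with the antisense gene Has2os, and whether the counting used strand is not given for these libraries. Has2os had between 5 and 19 counts per library (log2 fold change -0.42 ± 0.48, edgeR adjusted p 0.659).

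Has3 (chromosome 8, 106870242 to 106884566), whose enzyme makes shorter chains in cultured cells, was at 1.08, 0.673 and 1.10 CPM in AAV9-HSA-GFP replicates 42, 43 and 46. It was at 0.415, 1.30 and 1.18 CPM in AAV9-HSA-CAAHR replicates 31, 34 and 36. AAV9-HSA-CAAHR replicate 31 was the lowest library of all and the other two were the highest, so the groups overlapped. Its log2 fold change was 0.02 ± 0.41, and this sign turned with upper quartile scaling (-0.05) and in 3 of the 6 fits that left out 1 library. Has3 shares 5.52% of its exon bases with Chtf8 on the opposite strand.

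The make-up of the synthase transcripts was set out per length, in CPM per kilobase of exon, so that the 3 genes could be compared. In AAV9-HSA-GFP muscles Has1 held 45.1% ± 4.77 (SD, n = 3) of the synthase total, Has2 39.2% ± 6.14 and Has3 15.8% ± 2.41. In AAV9-HSA-CAAHR muscles Has1 held 9.82% ± 4.84, Has2 44.7% ± 6.46 and Has3 45.5% ± 11.1. The summed synthase level was 0.934 ± 0.107 CPM per kilobase in AAV9-HSA-GFP muscles and 0.316 ± 0.106 CPM per kilobase in AAV9-HSA-CAAHR muscles. By library the sum was 0.968, 0.814 and 1.02 in AAV9-HSA-GFP replicates 42, 43 and 46 and 0.198, 0.404 and 0.346 in AAV9-HSA-CAAHR replicates 31, 34 and 36. Has1 and Has2 thus led in control-virus muscle at levels that overlapped, and Has2 and Has3 led in AAV9-HSA-CAAHR muscle.

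**Figure D2:**
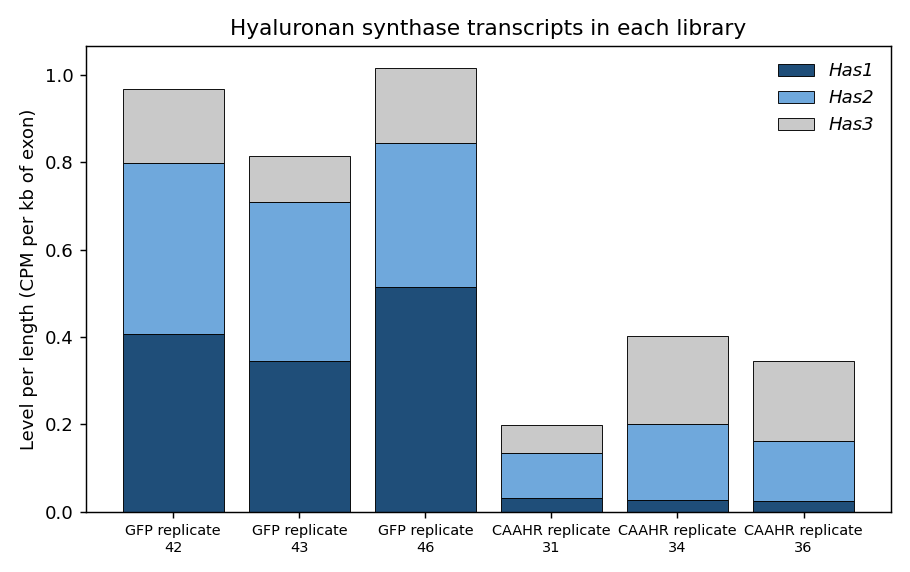
Stacked bars of the level per length (CPM per kilobase of exon, from 0) of Has1, Has2 and Has3 in each of the 6 libraries. The bars reach 0.814 to 1.02 in the AAV9-HSA-GFP libraries and 0.198 to 0.404 in the AAV9-HSA-CAAHR libraries, where the Has1 segment is a thin strip.

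Of the turnover genes, Hyal2 and Hyal1 lie 4148 bases apart on chromosome 9. Hyal2 (107567945 to 107572779) encodes a membrane-anchored enzyme that starts the breakdown of long chains. Hyal2 was at 9.26, 10.5 and 13.4 CPM in AAV9-HSA-GFP replicates 42, 43 and 46 and at 9.06, 8.98 and 11.8 CPM in AAV9-HSA-CAAHR replicates 31, 34 and 36. The groups overlapped over most of their range (log2 fold change -0.15 ± 0.17), and the sign turned without AAV9-HSA-GFP replicate 46 (0.0113). Hyal1 (107576927 to 107581710) encodes the lysosomal hyaluronidase. It was at 1.57, 1.03 and 1.30 CPM in AAV9-HSA-GFP replicates 42, 43 and 46. In AAV9-HSA-CAAHR replicates 31, 34 and 36 it was at 1.82, 1.79 and 2.17 CPM. Each AAV9-HSA-CAAHR library was above each AAV9-HSA-GFP library, with a log2 fold change of 0.56 ± 0.23 that was not past the threshold. Hyal1 shares 50.8% of its exon bases with Nat6 on the same strand, so its count is uncertain. Nat6 was between 11.8 and 14.8 CPM in all libraries (log2 fold change -0.07 ± 0.12, edgeR adjusted p 0.801).

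Cemip (chromosome 7, 83932857 to 84086502) encodes a protein needed for hyaluronan breakdown in skin fibroblasts. It was at 1.22, 1.44 and 2.61 CPM in AAV9-HSA-GFP replicates 42, 43 and 46 and at 2.37, 1.93 and 0.213 CPM in AAV9-HSA-CAAHR replicates 31, 34 and 36. AAV9-HSA-CAAHR replicate 36, with 13 counts, stood apart from every other library, which had between 59 and 138 counts. The log2 fold change was -0.24 ± 0.77, and it turned to 0.27 without that library and to 0.17 without AAV9-HSA-GFP replicate 46. With limma-voom and sample weights it was -1.20, so neither its size nor its direction was settled.

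Among the binding genes, Tnfaip6 (chromosome 2, 52038009 to 52056686) encodes TSG-6, a secreted protein induced in inflammation that moves heavy chains of inter-alpha-inhibitor onto hyaluronan. It was at 2.88, 3.75 and 2.91 CPM in AAV9-HSA-GFP replicates 42, 43 and 46 and at 1.32, 1.05 and 0.771 CPM in AAV9-HSA-CAAHR replicates 31, 34 and 36. The groups were well apart, with a log2 fold change of -1.60 ± 0.24, a level 3.04-fold lower. The value lay between -1.81 and -1.43 over 15 alternatives.

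Cd44 (chromosome 2, 102811141 to 102901665), the main cell-surface receptor for hyaluronan on leukocytes and fibroblasts, was at 6.01, 6.54 and 5.34 CPM in AAV9-HSA-GFP replicates 42, 43 and 46. In AAV9-HSA-CAAHR replicates 31, 34 and 36 it was at 5.42, 3.20 and 3.12 CPM. AAV9-HSA-CAAHR replicates 34 and 36 were lower than the control-virus libraries and replicate 31 was among them. The log2 fold change was -0.61 ± 0.22 and was not past the threshold. It was -0.92 and past the threshold without AAV9-HSA-CAAHR replicate 31.

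Vcan and Hapln1 lie 43660 bases apart on chromosome 13. Versican is a large chondroitin sulphate proteoglycan that binds hyaluronan at its end, and HAPLN1 is the link protein that fastens such proteoglycans to the chain. Vcan (89655312 to 89742509) was at 3.73, 3.51 and 3.59 CPM in AAV9-HSA-GFP replicates 42, 43 and 46 and at 4.27, 4.22 and 3.67 CPM in AAV9-HSA-CAAHR replicates 31, 34 and 36. Its spread within groups was small, and its log2 fold change of 0.17 ± 0.15 was about the size of its error. Hapln1 (89539796 to 89611652) had between 2 and 7 counts in AAV9-HSA-GFP libraries and between 1 and 5 counts in AAV9-HSA-CAAHR libraries, so a difference could not be detected at this depth.

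Per length, the 10 genes in AAV9-HSA-GFP muscles ran from Hyal2 at 3.35 ± 0.644 CPM per kilobase (SD, n = 3) through Tnfaip6 at 1.86 ± 0.289 and Cd44 at 0.880 ± 0.0883. Has1 came next at 0.423 ± 0.0851, followed by Has2 at 0.361 ± 0.0308 and Hyal1 at 0.345 ± 0.0717. Vcan was at 0.250 ± 0.00775, Has3 at 0.149 ± 0.0374, Cemip at 0.144 ± 0.0608 and Hapln1 at 0.0172 ± 0.0108. The libraries of Has1, Has2 and Hyal1 overlapped with each other, as did those of Has3 and Cemip, and the other neighbours in this order did not. In AAV9-HSA-CAAHR muscles the order was Hyal2 at 3.02 ± 0.490, Tnfaip6 at 0.613 ± 0.162, Cd44 at 0.577 ± 0.193 and Hyal1 at 0.509 ± 0.0557, of which the last 3 overlapped. Vcan followed at 0.280 ± 0.0228, then Has3 at 0.151 ± 0.0750, Has2 at 0.137 ± 0.0354 and Cemip at 0.123 ± 0.0932, which overlapped apart from Vcan. Has1, at 0.0277 ± 0.00266, was above Hapln1 alone, at 0.0103 ± 0.00693, and its libraries overlapped with Cemip through AAV9-HSA-CAAHR replicate 36. The place of Hyal1 in both orders, and its overlaps, are uncertain. It shares 50.8% of its exon bases with Nat6 and can lose reads there, while its full exon length was used, so its level may be too low.

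Other genes of the pathway were taken from lists by role. These lists, and the comparison list below, were chosen with earlier results of these data known. The counts, shares and p-values given for each role are therefore a description and no independent support. Of 55 further genes in the table, 41 were tested and 8 of these (19.5%) were called, 7 lower and 1 higher. The shares over all tested genes were 7.6% called, 4.57% lower and 3.04% higher. Most of these 8 calls, 4 lower and 1 higher, were among 10 tested inducers of synthesis (cytokines, growth factors and a cyclooxygenase). The rest were 2 of 8 UDP-sugar genes and 1 of 6 receptors. The pooled share is therefore no measure of the genes that make, cut or bind hyaluronan. The median log2 fold change of the 41 genes was -0.36, against 0.00863 over all tested genes. The comparison list held 26 tested genes for chondroitin and heparan sulphate chains, which draw on the same UDP-sugar pools. In it 2 were called higher and 1 lower, with a median of 0.0017. The sizes of these lists are unequal and no test of one list against the other was made.

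**Figure D3:**
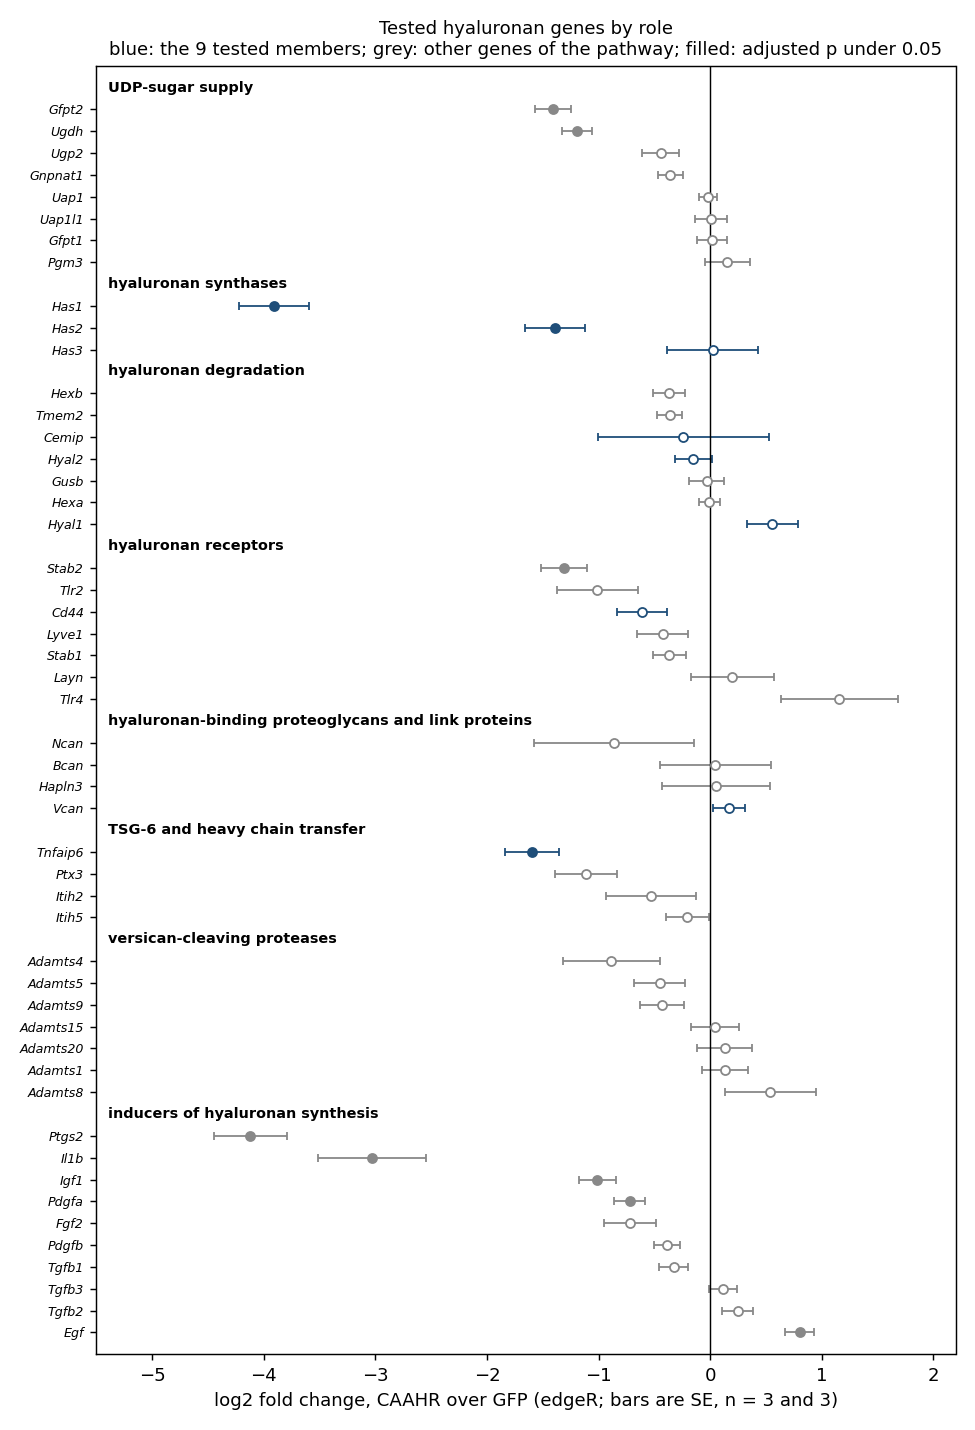
Log2 fold change, AAV9-HSA-CAAHR over AAV9-HSA-GFP (horizontal axis; bars are SE), of the 9 tested members (blue) and the 41 other tested genes (grey), grouped by role, with filled points for an adjusted p under 0.05. Filled points lie on the lower side in every role that has one, apart from Egf.

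The supply of UDP-sugars was the role nearest to the synthases. Of 8 tested genes, 2 were called lower and 0 higher, beside 7.6% called of all tested genes. By fitted value 5 were lower and 3 higher. Ugdh encodes UDP-glucose dehydrogenase, which makes UDP-glucuronic acid. It was at 15.6, 16.0 and 12.2 CPM in AAV9-HSA-GFP replicates 42, 43 and 46 and at 6.94, 5.97 and 6.32 CPM in AAV9-HSA-CAAHR replicates 31, 34 and 36 (log2 fold change -1.19 ± 0.14, edgeR adjusted p 0.00127). Gfpt2 encodes one of the paralogous enzymes for the first step of the hexosamine route to UDP-N-acetylglucosamine. It was at 21.0, 20.9 and 13.9 CPM in AAV9-HSA-GFP replicates 42, 43 and 46 and at 6.62, 7.19 and 7.17 CPM in AAV9-HSA-CAAHR replicates 31, 34 and 36 (log2 fold change -1.41 ± 0.16, edgeR adjusted p 0.00135). Both genes were lower in 3 of 3 libraries with no overlap, and both kept their call in each of 15 alternatives. The other paralogue, Gfpt1, averaged 38.0 CPM with the active receptor and 37.6 CPM with the control virus (0.01 ± 0.13). The other 5 genes of this role had log2 fold changes between -0.44 and 0.16.

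Of 6 tested hyaluronan receptors other than Cd44, 1 was called lower and 0 higher, beside 7.6% called of all tested genes. By fitted value 4 were lower and 2 higher. Stab2 encodes stabilin-2, a scavenger receptor that takes up hyaluronan in sinusoidal endothelium. It was at 26.7, 32.0 and 26.3 CPM in AAV9-HSA-GFP replicates 42, 43 and 46 and at 8.64, 15.4 and 10.2 CPM in AAV9-HSA-CAAHR replicates 31, 34 and 36 (log2 fold change -1.31 ± 0.21, edgeR adjusted p 0.00881). The groups were apart, with AAV9-HSA-CAAHR replicate 34 the nearest to the controls. The remaining receptors had log2 fold changes between -1.01 (Tlr2) and 1.16 (Tlr4), and Tlr4 was uneven among AAV9-HSA-CAAHR replicates 31, 34 and 36, at 4.81, 0.963 and 2.48 CPM.

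In 4 roles no gene beside the members was called. Of 4 tested genes for degradation, the smallest p was that of Tmem2, a cell-surface hyaluronidase gene (log2 fold change -0.36 ± 0.11, edgeR adjusted p 0.0845). Of 3 tested proteoglycan and link protein genes it was that of Ncan (-0.86 ± 0.72, edgeR adjusted p 0.527), which had 4 counts in AAV9-HSA-CAAHR replicate 36 and 27 to 55 in the others and was -0.33 without that library, -1.35 without replicate 34 and -2.06 with limma-voom and sample weights. Of 7 versican-cleaving proteases it was that of Adamts9 (-0.43 ± 0.20, edgeR adjusted p 0.225), which was -0.23 without AAV9-HSA-GFP replicate 42. Of 3 tested genes that act with TSG-6, Ptx3 had the smallest. It encodes pentraxin 3, which joins TSG-6 in cross-linking hyaluronan, and it was at 11.8, 8.51 and 16.0 CPM in AAV9-HSA-GFP replicates 42, 43 and 46. In AAV9-HSA-CAAHR replicates 31, 34 and 36 it was at 4.73, 7.63 and 4.49 CPM. The groups did not overlap (log2 fold change -1.11 ± 0.28), and the edgeR adjusted p of 0.0514 fell under 0.05 in 7 of 15 alternatives.

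Factors known to raise hyaluronan synthesis in cultured cells formed the last role. Of 10 tested, 4 were called lower and 1 higher, beside 4.57% and 3.04% of all tested genes. By fitted value 7 were lower and 3 higher. Ptgs2, for the inducible cyclooxygenase of prostaglandin synthesis, was at 3.38, 7.26 and 5.25 CPM in AAV9-HSA-GFP replicates 42, 43 and 46 and at 0.257, 0.298 and 0.344 CPM in AAV9-HSA-CAAHR replicates 31, 34 and 36 (log2 fold change -4.12 ± 0.32, edgeR adjusted p 0.000222). Il1b, for the cytokine interleukin 1 beta, was at 1.10, 2.57 and 4.19 CPM against 0.257, 0.350 and 0.344 CPM (-3.03 ± 0.48, edgeR adjusted p 0.00851). The 3 AAV9-HSA-CAAHR libraries were below every control-virus library for both genes, and the call for Il1b was lost without AAV9-HSA-CAAHR replicate 36 at about the same size (log2 fold change -3.11, edgeR adjusted p 0.0501).

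Of the growth factors in that role, Igf1, for insulin-like growth factor 1, was at 10.7, 9.97 and 10.9 CPM in AAV9-HSA-GFP replicates 42, 43 and 46 and at 6.68, 4.32 and 4.66 CPM in AAV9-HSA-CAAHR replicates 31, 34 and 36 (log2 fold change -1.01 ± 0.17, edgeR adjusted p 0.00773). Pdgfa, for a chain of platelet-derived growth factor, was at 37.0, 32.2 and 47.4 CPM against 22.4, 26.0 and 22.2 CPM (-0.72 ± 0.14, edgeR adjusted p 0.0177), a call that was lost without AAV9-HSA-CAAHR replicate 31 (-0.69, edgeR adjusted p 0.0787) or 36 (-0.69, edgeR adjusted p 0.0816). Egf, for epidermal growth factor, went the other way, at 50.4, 43.7 and 39.1 CPM against 66.4, 88.6 and 77.2 CPM (0.80 ± 0.13, edgeR adjusted p 0.00727). The groups did not overlap for any of the 3 genes.

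In the comparison list, Ndst1 (log2 fold change 0.49 ± 0.09, edgeR adjusted p 0.0104), for an enzyme that sulphates heparan chains, and Csgalnact2 (0.57 ± 0.12, edgeR adjusted p 0.0236), for one that starts chondroitin chains, rose. Xylt1, for the transferase that adds the first sugar of both chains, fell (-0.76 ± 0.17, edgeR adjusted p 0.0253).

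**Figure D4:**
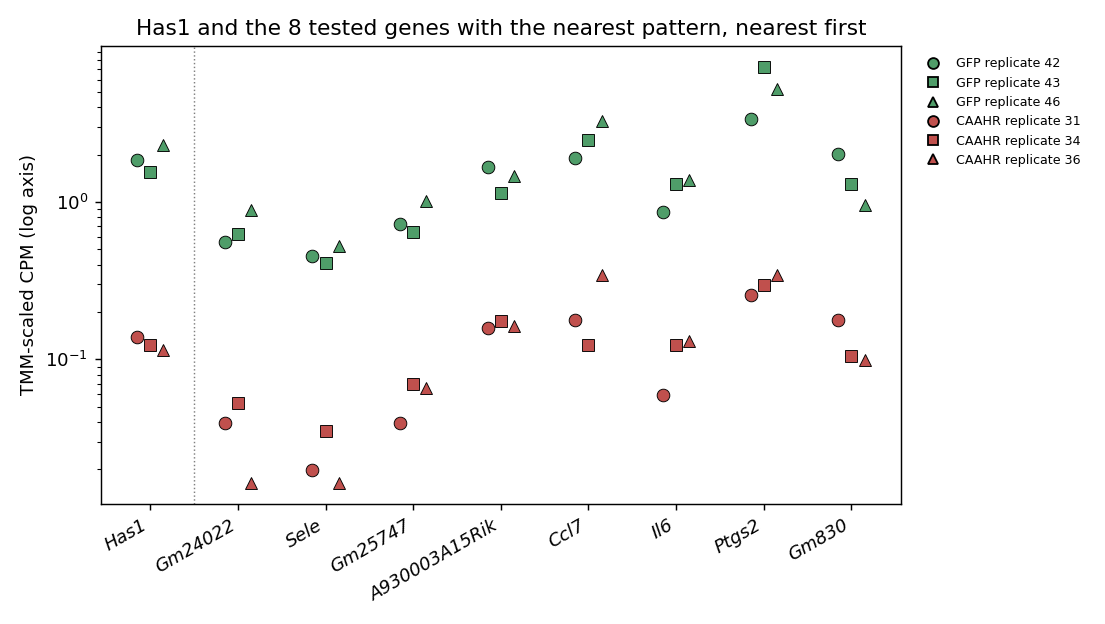
TMM-scaled CPM (vertical log axis) of Has1 and of the 8 tested genes with the nearest pattern over the 6 libraries, nearest first, with AAV9-HSA-GFP libraries in green and AAV9-HSA-CAAHR libraries in red. In each of the 9 genes all green points lie above all red points.

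The tested genes whose pattern over the 6 libraries was nearest to that of Has1 were found by the root mean square difference of log2 CPM after centring each gene on its mean. They were Gm24022 (0.259), Sele (0.31), Gm25747 (0.31), A930003A15Rik (0.399), Ccl7 (0.445), Il6 (0.447), Ptgs2 (0.472) and Gm830 (0.486), against a median of 1.8 over 15846 genes. Sele encodes the adhesion molecule E-selectin of activated endothelium, Ccl7 a monocyte chemokine and Il6 the cytokine interleukin 6. Il6 was at 0.870, 1.30 and 1.38 CPM in AAV9-HSA-GFP replicates 42, 43 and 46 and at 0.0593, 0.123 and 0.131 CPM in AAV9-HSA-CAAHR replicates 31, 34 and 36. Ccl7 was at 1.91, 2.48 and 3.27 CPM against 0.178, 0.123 and 0.344 CPM. Gm24022 and Gm25747 are annotated as overlapping miRNA genes on chromosome 12, so their counts are uncertain, and A930003A15Rik and Gm830 as non-coding RNAs. The 2 miRNA genes, from 113424645 to 113424788, lie near the immunoglobulin gene Ighm (113418558 to 113422730). Which transcripts their reads come from was not tested. Among the members, Tnfaip6 (1.03) was placed 204th and Has2 (1.14) 312th of 15846 genes by this measure, and Cd44 (1.49) 1380th. The other 5 tested members lay between 1.72 and 2.07. The measure is a description that mostly follows the difference between the groups. In AAV9-HSA-CAAHR replicates 31, 34 and 36 the floor of 3 counts was 0.0593, 0.0525 and 0.0492 CPM. Sele (0.0198, 0.035 and 0.0164 CPM) and Gm24022 (0.0396, 0.0525 and 0.0164 CPM) were at or under it. Il6 was at this floor and Gm25747 under it in replicate 31. Nearness to Has1 is limited by depth for such genes.

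Markers of several cell types moved with the groups. The counts of markers called, here and in the next paragraph, stand beside 7.6% called of all tested genes, 4.57% lower and 3.04% higher. In sum, the 8 B and plasma cell markers were between 9.71 and 19.3 CPM in AAV9-HSA-CAAHR libraries, against 129 to 435 CPM in control-virus libraries, with 5 called lower. Ighm (log2 fold change -4.22 ± 0.59) made up most of this sum in every library. All 8 were fitted lower, with a median of -2.23. The neutrophil markers were between 3.08 and 3.94 CPM against 9.16 to 20.1 CPM, with 6 of 7 tested called lower and Camp and Ly6g at 3 counts or fewer in every library. The macrophage markers were between 24.9 and 42.8 CPM against 50.1 to 108 CPM. Of these, 0 of 9 tested were called, but all 9 were fitted lower with a median log2 fold change of -1.08. The T and NK cell markers were between 1.10 and 1.72 CPM against 2.67 to 10.9 CPM, with Klrb1c at 3 counts or fewer. Of 3 tested, 1 was called lower and all 3 were fitted lower, with a median of -4.24. Cd3e (log2 fold change -0.42 ± 0.35) made up most of the sum in every AAV9-HSA-CAAHR library. The adipocyte markers were between 86.8 and 141 CPM against 110 to 232 CPM, with 3 of 8 called lower. Most of this sum was Fabp4 (log2 fold change -0.03 ± 0.23), whereas all 8 were fitted lower with a median of -2.04, and the called ones were Cfd (-3.05), Plin1 (-2.77) and Retn (-2.43). The part of these cells in the lower Has1, Has2 and Tnfaip6 was not tested. Leaving the macrophage, neutrophil, B and T cell marker genes out of the counts, which alters the scaling and not the cells sampled, gave log2 fold changes of -3.91, -1.39 and -1.60.

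Markers of fibroblasts and fibro-adipogenic progenitors, the connective tissue cells known as a source of hyaluronan in muscle, were in sum between 470 and 699 CPM in AAV9-HSA-CAAHR muscles and between 560 and 667 CPM in AAV9-HSA-GFP muscles. Of 12 tested, 1 was called, Smoc2, which was higher (log2 fold change 0.73, edgeR adjusted p 0.0056), and the median was -0.07. Tenocyte markers were between 78.5 and 523 CPM against 205 to 344 CPM, with AAV9-HSA-CAAHR replicate 34 the lowest. Mesothelial and perineurial markers were between 13.8 and 19.5 CPM against 18.5 to 22.3 CPM, with Wt1, Lrrn4 and Upk3b at 3 counts or fewer in every library. Endothelial markers were between 202 and 280 CPM against 204 to 255 CPM, and pericyte and smooth muscle markers between 560 and 756 CPM against 579 to 640 CPM, with 0 of 8 called in either. Satellite cell markers were between 3293 and 3590 CPM against 4382 to 5486 CPM, but nearly all of this sum was Des, which fibres also express (log2 fold change -0.48 ± 0.13). Of the 8, Vcam1 was called lower, 5 were fitted higher and the median was 0.07. Schwann cell markers were between 51.4 and 85.0 CPM against 82.7 to 142 CPM with 0 of 8 called. All 8 were fitted lower, with a median log2 fold change of -0.716.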

How the data were processed

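RNA from mouse gastrocnemius was sequenced after poly(A) selection as paired-end reads. The authors trimmed the reads with Trimmomatic 0.36, aligned them to GRCm38 with STAR 2.5.2b and deposited whole-number counts of unique exonic reads per gene, without normalisation. Paralogues and overlapping genes can lose reads in such counting, and whether strand was used is not given in the sources used here. The sources do not say outright that each library is a different mouse, so p-values measure the spread between these libraries. Depth was 43432994 to 58825752 counts per library, and a floor of 3 counts covers counting error only.

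From these counts, edgeR 4.0.16 in R 4.3.3 was used with TMM scaling, its default filter on low counts and the robust quasi-likelihood F test on all 6 libraries, with Benjamini-Hochberg adjustment over 15847 genes and a threshold of 0.05. CPM are TMM-scaled. Level per length is CPM per kilobase of exon in GENCODE M21, which matched 99.3% of rows. The 174 rows without a symbol were kept. The fit was tested on simulated data, where it recovered most genes given a known change but a larger share of its calls was false than the threshold allows. Alternatives were other scalings and filters, DESeq2 1.42.0, limma 3.58.1 (voom with sample weights), edgeR without robust estimation, the immune markers left out, and each library left out. Promoters are from RefSeq.

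Named were all 10 members, the called genes of the role lists and of the comparison list, otherwise the gene of smallest p in each role list, the 8 genes most like Has1, its nearest protein-coding neighbours on each side, and Ahr, Ahrr and Cyp1a1 as the check of the delivered gene. Beyond this rule, Gfpt1, Tlr2, Tlr4, the genes that overlap members and all single genes of the cell type marker lists were named after their values were seen. The members and lists were chosen with earlier results of these data known.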

Additional observations from a re-analysis of the deposited data

How the results depend on the processing

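No paired analysis was possible because no replicate number occurred in both groups. Of 15847 genes, 1205 were called, against 2470 with no filter on low counts, 1932 with the DESeq2 Wald test and 530 to 1727 with 1 library left out. The further genes called in the role lists were 8, against 17 with no filter and 6 to 10 with 1 library left out. The chondroitin and heparan sulphate genes called were 3, against 5 with no filter and 1 to 4 with 1 library left out. The members called were 3, with 2 to 4 over the alternatives. Has1 was not tested where 10 counts in every library were required. Leaving out a library also removes samples from the fit. For the other shifts, the cause was not tested.

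Over 21 named genes, 306 of 313 checks kept the direction. The checks refitted the same libraries, in whole or with 1 left out, and genes were partly chosen from this comparison. The tally is therefore a description and no independent support. Has3 turned with upper quartile scaling (-0.0488) and without AAV9-HSA-CAAHR replicate 34 (-0.249) or 36 (-0.152) or AAV9-HSA-GFP replicate 43 (-0.164), and with 1 library left out it ran from -0.249 to 0.37. Hyal2 turned without AAV9-HSA-GFP replicate 46 (0.0113; range -0.301 to 0.0113). Cemip turned without AAV9-HSA-CAAHR replicate 36 (0.273) or AAV9-HSA-GFP replicate 46 (0.165; range -0.737 to 0.273), and was -1.20 with limma-voom and sample weights. Has1 lay between -4.04 and -3.75 in the 14 alternatives that tested it. Values under about 10 counts, such as Has1 in AAV9-HSA-CAAHR muscles and Hapln1 in all, are limited by depth.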
